A study of Mus musculus with 69 samples.

Results

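The ventral striatum libraries richest and poorest in Trh, the gene for the precursor of thyrotropin-releasing hormone, were set against each other: 22 libraries with the highest and 22 with the lowest CPM of Trh, of 69 in all. CPM is a gene's count scaled to a fixed library total. The libraries were chosen by this measured level, within each of 2 mouse lines, so that 11 Trh-rich and 11 Trh-poor libraries came from HDID1 and as many from HSNpt. The other 25 libraries lay between the groups. HDID1 is a single line, bred for high blood ethanol in the limited-access test called drinking in the dark, and HSNpt is the control stock. All 69 mice, Trh-rich and Trh-poor alike, had taken a 4-day test with a single bottle of 20% ethanol and gave tissue 3 weeks later. No group was untreated, and the labels give no ages. The tissue was cut by hand from a partly thawed 2 mm coronal slice that began at the optic chiasm, starting medially and ventrally and reaching 1 mm dorsally. Trh-rich libraries came from 9 females and 13 males, Trh-poor libraries from 13 females and 9 males (Fisher's exact test, two-sided, p = 0.366).

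Neurons of the hypothalamus make peptide hormones that are packed in dense-core vesicles and released in the brain, at the pituitary or into the blood. Thyrotropin-releasing hormone, made in the paraventricular nucleus, drives the pituitary to release thyrotropin, and thyroid hormone in turn lowers Trh transcription. The nearby magnocellular neurons make oxytocin and vasopressin, while orexin and melanin-concentrating hormone mark neurons of the lateral hypothalamus.

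The genomic sequence just upstream of Trh and of 3 peptide genes that went with it is shown because these genes moved together. Each run is 250 bases ending at the RefSeq start site, from RefSeq on GRCm38.p6, read 5′ to 3′ on the gene's own strand. The windows are chr6:92244651-92244900 on the minus strand for Trh, chr19:3414545-3414794 on the minus strand for Gal, chr2:130575919-130576168 on the plus strand for Oxt and chr2:130582589-130582838 on the minus strand for Avp. Capitals mark AGGTCA or its reverse complement TGACCT, the core letters of sites that nuclear receptors such as those for thyroid hormone and estrogen can bind.
Trh: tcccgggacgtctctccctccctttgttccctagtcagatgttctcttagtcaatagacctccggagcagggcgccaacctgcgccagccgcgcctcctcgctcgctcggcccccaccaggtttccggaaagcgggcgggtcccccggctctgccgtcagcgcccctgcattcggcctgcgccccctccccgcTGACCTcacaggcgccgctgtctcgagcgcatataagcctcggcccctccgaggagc
Gal: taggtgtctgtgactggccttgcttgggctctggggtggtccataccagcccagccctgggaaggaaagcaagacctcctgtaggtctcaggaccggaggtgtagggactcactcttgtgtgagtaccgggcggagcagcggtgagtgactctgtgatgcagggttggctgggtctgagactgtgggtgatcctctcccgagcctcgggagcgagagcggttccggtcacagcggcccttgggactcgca
Oxt: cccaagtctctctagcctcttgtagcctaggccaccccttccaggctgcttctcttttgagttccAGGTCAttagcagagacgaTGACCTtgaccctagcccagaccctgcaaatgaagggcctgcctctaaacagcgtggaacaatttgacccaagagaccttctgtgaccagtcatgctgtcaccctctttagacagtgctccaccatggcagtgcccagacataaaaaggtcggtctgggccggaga
Avp: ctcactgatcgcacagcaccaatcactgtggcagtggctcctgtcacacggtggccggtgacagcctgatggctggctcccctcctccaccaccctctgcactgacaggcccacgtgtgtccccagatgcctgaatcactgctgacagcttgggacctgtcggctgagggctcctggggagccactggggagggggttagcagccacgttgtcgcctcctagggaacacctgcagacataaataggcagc
The motif stood 1 time in the Trh window, starting 57 bases before the start site, 2 times in that of Oxt, at 185 and 166 bases, and 0 times in those of Gal and Avp. Of all 32851 RefSeq windows of this length 14% held it on either strand, and 1.36% held it 2 or more times. These matches are letters only, and binding was not measured here.

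Trh chose the libraries, so its own values are given with no test. In HDID1, Trh lay at 23.5, 34.3 and 50.1 CPM (lowest, median and highest) in the 11 Trh-rich libraries and at 2.89, 5.89 and 7.58 CPM in the 11 Trh-poor ones. In HSNpt the levels were lower, at 8.87, 15.8 and 37 CPM and at 1.36, 3.66 and 4.78 CPM. The next library after the last Trh-rich one was at 20.6 CPM in HDID1 and at 8.74 CPM in HSNpt, so that the edge in HSNpt ran between nearly equal levels. On the other side, 7.87 CPM stayed outside the Trh-poor libraries of HDID1 and 4.97 CPM outside those of HSNpt. The library lowest in CPM had 24 counts of Trh and the highest had 837.

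**Figure D1:**
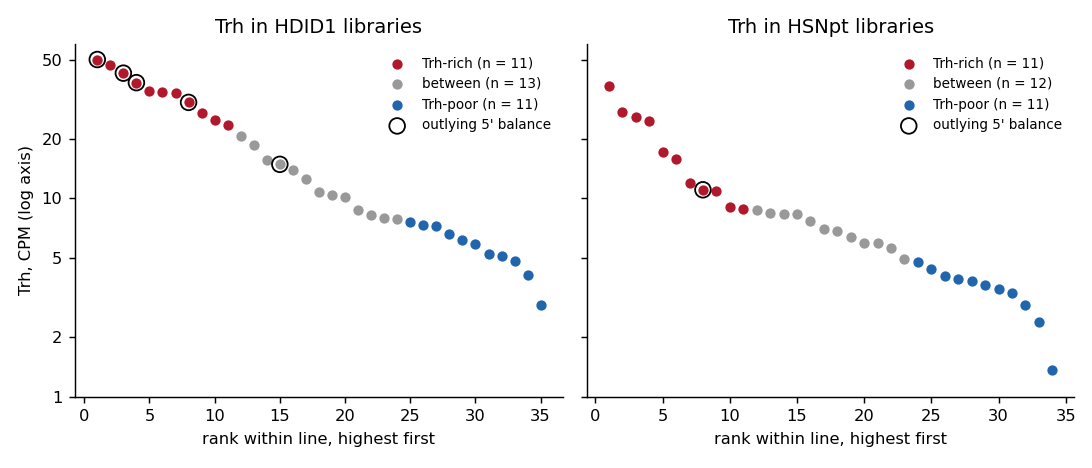
Trh in CPM (log axis) against the rank of each library within its line, with HDID1 on the left and HSNpt on the right. Red points are the 11 Trh-rich, blue the 11 Trh-poor and grey the remaining libraries, and black rings mark outlying 5' balance. The step at the edge of the Trh-rich libraries ran from 23.5 to 20.6 CPM in HDID1 and from 8.87 to 8.74 CPM in HSNpt.

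Gene counts summed to between 14077983 and 35257422 over the 69 libraries. A library's 5' balance is the log2 ratio of counts in the 5'-most to the 3'-most exons, 1 in 3 of a gene's exons each, centred and taken as a median over 8837 genes. It was -0.361 ± 0.824 (SD) in Trh-rich and 0.0755 ± 0.121 in Trh-poor libraries (permutation test within line, two-sided, adjusted p = 0.0104 over 4 measures). Of 6 libraries over 3 scaled median absolute deviations from the median of all, 5 were Trh-rich, 0 were Trh-poor and 1 lay between (Fisher's exact test, two-sided, p = 0.0485). These 5 were HDID1 female replicates 4, 6 and 10, HDID1 male replicate 5 and HSNpt male replicate 8. Total counts were 19379184 ± 4618664 in Trh-rich and 17174761 ± 1395865 in Trh-poor libraries (adjusted p = 0.0249), and genes with at least 1 count 22101 ± 973 and 21493 ± 332 (adjusted p = 0.0115). Because 5' balance and depth moved with the groups, their part in the results below was not tested beyond the values given without those libraries and with 5' balance as a term. Blood ethanol, whose unit is not stated, read 0.869 ± 0.731 in Trh-rich and 1.06 ± 1.02 in Trh-poor mice (adjusted p = 0.393), with means of 1.13 and 1.79 in HDID1 (adjusted p = 0.121) and of 0.610 and 0.336 in HSNpt (adjusted p = 0.340), none of which passed.

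A large share of the genes went with Trh. Of 16810 genes tested by edgeR's quasi-likelihood test with line as covariate, 5505 (32.7%) were higher and 4174 (24.8%) lower in Trh-rich libraries at an adjusted p under 0.05, 57.6% together. The median log2 fold change over all genes was 0.04. Most changes were small: 3689 of the higher and 3162 of the lower genes differed by less than 1.5-fold, 476 and 202 by more than 2-fold, and 63 and 13 by more than 4-fold. Without the 5 outlying Trh-rich libraries 4031 genes (23.7%) were higher and 3693 (21.7%) lower. The groups were set by a measured gene, so these p-values state how a gene went with Trh among these mice, not the effect of a treatment, and they measure the spread between mice.

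Gal, the precursor of galanin, a peptide of preoptic and other hypothalamic neurons, was higher in Trh-rich libraries. Gal (chr19:3409919-3414472 on mm10, 6 exons) lay at 5.88, 14.1 and 37.6 CPM (lowest, median and highest) in the 22 Trh-rich libraries and at 0.297, 2.38 and 9.41 CPM in the 22 Trh-poor ones. The groups overlapped little, with 18 of 22 Trh-rich libraries above every Trh-poor one (log2 fold change 2.57, SE 0.25, adjusted p = 8.72e-11). Oxt, the oxytocin precursor (chr2:130576173-130577054, 3 exons), lay at 2.68, 79 and 400.5 CPM and at 0, 4.30 and 26.3 CPM, with 16 of 22 above every Trh-poor library (log2 fold change 4.03, SE 0.50, adjusted p = 1.33e-08). Avp, the neighbouring vasopressin gene (chr2:130580620-130582554, 3 exons), lay at 4.70, 108 and 349 CPM and at 0, 1.18 and 62.8 CPM, with 14 of 22 above (log2 fold change 3.82, SE 0.61, adjusted p = 1.60e-06). Whether fewer cells of a type or less RNA per cell set such levels cannot be told apart in bulk tissue.

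The lateral hypothalamic peptides spread widely. Pmch, the precursor of melanin-concentrating hormone (chr10:88091072-88092375, 3 exons), lay at 0.713, 44.3 and 734 CPM in Trh-rich and at 0.192, 0.509 and 4.89 CPM in Trh-poor libraries (log2 fold change 7.31, SE 0.73, adjusted p = 1.15e-10). Hcrt, the orexin precursor, lay at 0, 3.75 and 122 CPM and at 0, 0.0573 and 0.407 CPM (log2 fold change 8.17, SE 0.92, adjusted p = 1.52e-09), where 0.213 CPM is the level that a count of 0 allows at the lowest depth. Above every Trh-poor library stood 15 of 22 Trh-rich libraries for Pmch and 16 for Hcrt, and 10 and 8 of the 25 libraries between the groups. With most Trh-poor libraries under that limit the fold change of Hcrt is only loosely set, and without the outlying libraries it was 7.49, against 6.80 for Pmch.

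**Figure D2:**
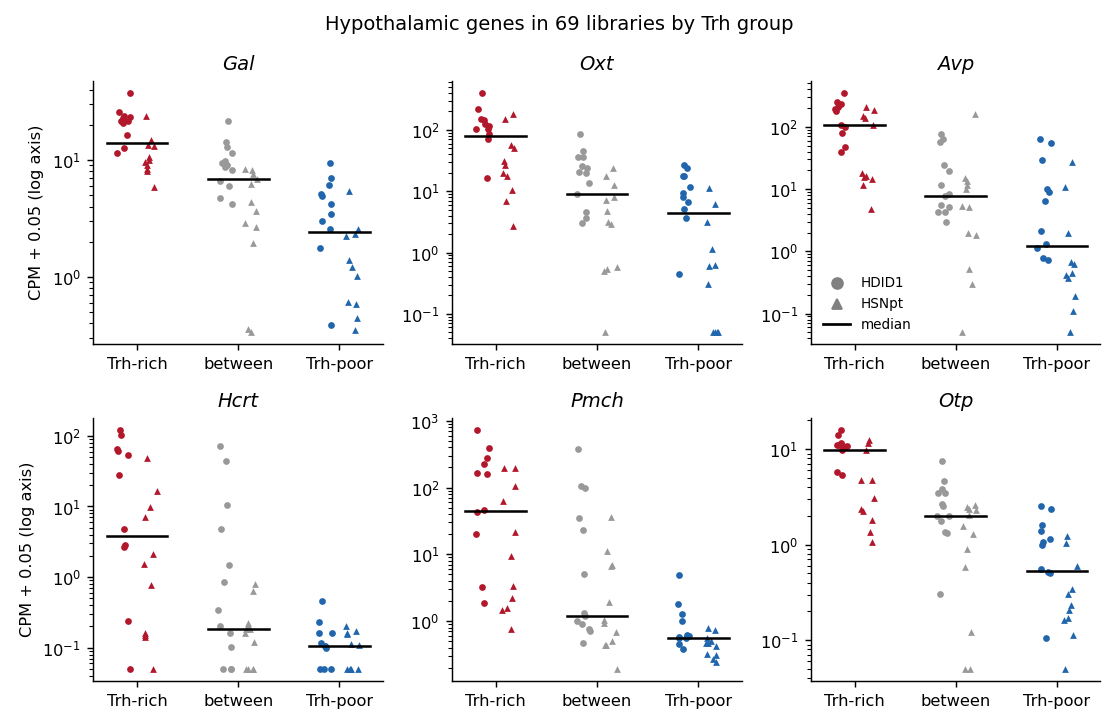
Gal, Oxt, Avp, Hcrt, Pmch and Otp in CPM plus 0.05 (log axis) in the 22 Trh-rich, 25 between and 22 Trh-poor libraries. Circles are HDID1, triangles HSNpt and bars the group medians. The Trh-rich median stood above the others for every gene shown, for example at 14.1, 6.78 and 2.38 CPM for Gal. Every gene shown also reached down to Trh-poor levels in some Trh-rich libraries.

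High oxytocin and high melanin-concentrating hormone did not always come in the same library. Of the 22 Trh-rich libraries 11 stood above every Trh-poor one in both Oxt and Pmch, 5 in Oxt alone, 4 in Pmch alone and 2 in neither. The highest Trh-poor levels, 26.3 CPM of Oxt and 4.89 CPM of Pmch, were both of HDID1 libraries. In HSNpt the highest Trh-poor levels were lower, 11.4 CPM of Oxt and 0.728 CPM of Pmch. These counts therefore hold HSNpt libraries to HDID1 levels, and the split within each line was not counted. HDID1 male replicate 3 had 220.3 CPM of Oxt and 231.5 CPM of Avp with 1.82 CPM of Pmch and 0.192 CPM of Hcrt. HDID1 male replicate 12 was alike, at 148.9, 248.1, 3.17 and 0 CPM. In contrast HDID1 male replicate 1 had 16.2 CPM of Oxt and 47.8 CPM of Avp with 273.6 CPM of Pmch and 65.8 CPM of Hcrt. HSNpt male replicate 11 had 2.68 CPM of Oxt and 103.9 CPM of Pmch, and 239.2 CPM of the thalamic and hypothalamic Slc17a6. HSNpt female replicate 1, with Trh at 9.0 CPM, was above all Trh-poor libraries in neither, at 6.96 CPM of Oxt and 1.54 CPM of Pmch. Its Pmch was still above every Trh-poor library of HSNpt. Of all 22 it had the highest summed level of medium spiny neuron markers, 19190.0 CPM.

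**Figure D3:**
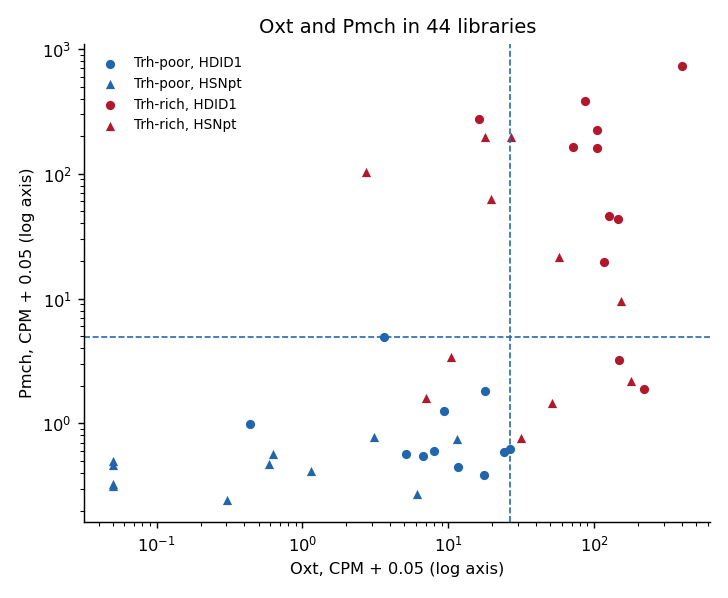
Oxt against Pmch, each in CPM plus 0.05 (log axes), in the 22 Trh-rich (red) and 22 Trh-poor (blue) libraries, circles for HDID1 and triangles for HSNpt. Dashed lines mark the highest Trh-poor library, 26.3 CPM of Oxt and 4.89 CPM of Pmch, in both cases one of HDID1. The upper right field holds 11 Trh-rich libraries, the lower right 5, the upper left 4 and the lower left 2.

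The list of 28 hypothalamic neuropeptide genes also holds a neurotrophin gene, Bdnf, and a receptor gene, Gpr101. Of the list 21 passed the filter on low counts, Trh aside. Of these 16 of 21 were higher and 2 lower (median log2 fold change 0.79), against 32.7% and 24.8% of all genes. Here and in the other lists a gene could pass the filter through the Trh-rich libraries alone. Hcrt did so, at 0.407 CPM or less in Trh-poor libraries. Pmch and Ucn3, and in the next list Otp and Sim1, were also too low in most Trh-poor libraries to pass through those alone. Such genes could hardly be called lower, so the shares of list members that were higher lean on the filter in part. Ucn3, urocortin 3, lay at 0.649 to 9.33 CPM (median 2.61) in Trh-rich and 0 to 1.35 CPM (median 0.165) in Trh-poor libraries (3.40, adjusted p = 3.97e-11, where the first value in such brackets is the log2 fold change). Tac2, the neurokinin B precursor, lay at 16.2 to 78.1 CPM (median 32.7) in Trh-rich and 3.45 to 18.6 CPM (median 10.9) in Trh-poor libraries (1.80, adjusted p = 1.38e-10), with 21 of 22 above every Trh-poor library. Smaller log2 fold changes were those of Crh, corticotropin-releasing hormone (0.63, adjusted p = 8.18e-04), and Pomc, the precursor of melanocortins and beta-endorphin (0.79, adjusted p = 0.00194). Without the outlying libraries Pomc had 0.37 (adjusted p = 0.0731) and the call was lost. The 2 that were lower were Vip (-1.23, adjusted p = 0.00228) and Bdnf (-0.57, adjusted p = 0.0284), the genes of vasoactive intestinal peptide and of a neurotrophin. Bdnf lost its call without the outlying libraries (-0.57, adjusted p = 0.0558). Agrp, of arcuate hunger neurons, lay at 0.154 to 0.767 CPM (median 0.463) in Trh-rich and 0.113 to 0.832 CPM (median 0.362) in Trh-poor libraries (0.05, adjusted p = 0.830). Kiss1, Npvf, Qrfp, Galp, Nmu and Rln3 did not pass the filter.

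Transcription factors of the developing and adult hypothalamus went the same way in part. Of 32 listed, 31 were in the table and 19 passed the filter, of which 11 were higher and 4 lower (median log2 fold change 0.76), against 32.7% and 24.8% of all genes, so the share that was lower was near that of all genes. The summed level of the 31 was not higher, at 239, 427 and 553 CPM (lowest, median and highest) in Trh-rich and 378, 453.5 and 526 CPM in Trh-poor libraries. Otp, a homeobox gene needed for neuroendocrine neurons (chr13:94875602-94885130), lay at 1.01, 9.73 and 15.9 CPM in Trh-rich and at 0, 0.484 and 2.50 CPM in Trh-poor libraries, with 17 of 22 above every Trh-poor one (log2 fold change 3.44, SE 0.32, adjusted p = 2.58e-11). Sim1, which acts in the same neurons, lay at 0.366 to 6.59 CPM (median 2.28) in Trh-rich and 0 to 2.99 CPM (median 0.173) in Trh-poor libraries (2.36, adjusted p = 5.09e-05). The LIM homeobox genes Lhx5 (2.37, adjusted p = 8.93e-10, 20 of 22 above) and Lhx9 (2.48, adjusted p = 2.69e-06, 11 of 22), the forkhead gene Foxb1 of the mammillary region (2.08, adjusted p = 8.95e-11, 19 of 22) and Nkx2-2 (0.76, adjusted p = 2.88e-09, 16 of 22) were higher as well. Over the whole table, exons of some genes overlap a gene on the opposite strand, and their values are uncertain, since the sources do not say whether counting used strand. Of the genes named these are 3110035E14Rik, 4931415C17Rik, Cnp, Dio2, Foxb1, Gbx2, Ipcef1, Jun, Nkx2-2, Nnat, Parpbp, Pcsk1n, Pcsk2, Penk, Pmch, Podxl2, Ramp3, Resp18, Shox2, Six3os1, Slc18a2, Slc1a2, Tbx3, Trhde and the pair Gm26917 and RP23-81C12.2. The 4 that were lower were Arnt2 (-0.41), Pou3f2 (-0.25), Tbx3 (-0.33) and Onecut2 (-0.90). Tbx3 lost its call without the outlying libraries (-0.20, adjusted p = 0.215).

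Genes known to be enriched in the hypothalamus, several of them imprinted, were higher almost throughout. Of 27 tested 25 were higher and 0 lower, with a median log2 fold change of 0.79 against 0.04 over all genes, of which 32.7% were higher and 24.8% lower. Cited1, a transcriptional coregulator, lay at 2.22, 4.75 and 16.9 CPM in Trh-rich and 0.414, 1.27 and 2.18 CPM in Trh-poor libraries (log2 fold change 2.00, SE 0.19, adjusted p = 3.84e-11). The groups did not overlap for Cited1, all 22 Trh-rich libraries being above all 22 Trh-poor ones. Gpx3, a secreted glutathione peroxidase, lay at 21.4 to 134 CPM (median 59.5) in Trh-rich and 4.56 to 39.1 CPM (median 13.4) in Trh-poor libraries (1.97, adjusted p = 3.83e-10), and Resp18, a protein of peptide secretory granules, at 78.5 to 566 CPM (median 166) in Trh-rich and 19.5 to 112 CPM (median 57.8) in Trh-poor libraries (1.65, adjusted p = 3.78e-10). The imprinted Nap1l5 (0.95, 17 of 22 above), Ndn (0.78), Magel2 (1.28) and Nnat (1.27) were higher. Those that did not pass were Meg3 (-0.21, adjusted p = 0.132) and Peg10 (0.22, adjusted p = 0.374).

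Among receptors for hormones and peptides, 16 of 33 were higher and 3 lower (median log2 fold change 0.31), against 32.7% and 24.8% of all genes. In HSNpt alone 5 of 31 were higher, where 17.4% of all genes were, and in females alone 6 of 33, where 28.4% were, so these shares were near or below those of all genes. Ntsr2, a neurotensin receptor known from astrocytes, lay at 83.5 to 176 CPM (median 116) in Trh-rich and 55.4 to 96.2 CPM (median 77.6) in Trh-poor libraries (0.67, adjusted p = 3.23e-09), and the orexin receptor Hcrtr1 at 2.04 to 6.80 CPM (median 4.01) in Trh-rich and 0.967 to 3.46 CPM (median 2.40) in Trh-poor libraries (0.83, adjusted p = 5.79e-07). The estrogen receptors Esr1 (0.79, adjusted p = 6.72e-04) and Esr2 (1.20, adjusted p = 1.50e-04) and the ghrelin receptor Ghsr (1.98, adjusted p = 1.06e-06) were higher. The 3 that were lower were the neuropeptide Y receptor Npy1r (-0.44), the progesterone receptor Pgr (-0.42) and the melanin-concentrating hormone receptor Mchr1 (-0.47), a receptor known from the striatum. The oxytocin receptor Oxtr did not pass (0.07, adjusted p = 0.592).

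Genes around TRH and thyroid hormone went both ways. Of 16 genes that process, degrade or respond to TRH or handle thyroid hormone, 3 were higher and 6 lower (median log2 fold change -0.12), against 32.7% and 24.8% of all genes. Dio2, the deiodinase that makes active thyroid hormone in glia, lay at 20.1, 26.5 and 36.6 CPM in Trh-rich and 31.7, 45.3 and 60.1 CPM in Trh-poor libraries, with 18 of 22 Trh-rich libraries below every Trh-poor one (log2 fold change -0.77, SE 0.07, adjusted p = 7.46e-12). The thyroid hormone receptor Thrb lay at 12.5 to 41 CPM (median 29.1) in Trh-rich and 36.7 to 59.6 CPM (median 52.9) in Trh-poor libraries (-0.82, adjusted p = 1.81e-10, 17 of 22 below). The TRH-degrading ectoenzyme Trhde (-0.79, adjusted p = 2.48e-04), the prohormone convertase Pcsk2 (-0.36, adjusted p = 4.26e-07) and the thyroid hormone binding crystallin Crym (-0.63, adjusted p = 7.10e-04) were lower too. Higher were the carboxypeptidase Cpe (0.21), the glutaminyl cyclase Qpct (0.57) and the pyroglutamyl peptidase Pgpep1 (0.27). The TRH receptors Trhr (0.14, adjusted p = 0.505) and Trhr2 (-0.13, adjusted p = 0.404) did not pass.

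Dense-core vesicle proteins, with 7 higher and 5 lower of 18, median log2 fold change -0.01, were near the 32.7% and 24.8% of all genes. Syt9, a vesicle calcium sensor, lay at 13.1 to 72.9 CPM (median 32.4) in Trh-rich and 11 to 23.4 CPM (median 15.2) in Trh-poor libraries (1.08, adjusted p = 4.49e-09), and the granins Chga (0.58) and Scg2 (0.39) and the convertase inhibitor Pcsk1n (0.67) were higher. Of transmitter genes, 6 were higher and 3 lower of 16, also near those shares. Slc17a6, the vesicular glutamate transporter of hypothalamus and thalamus, lay at 28.4, 138 and 255 CPM in Trh-rich and 9.27, 33.9 and 65.9 CPM in Trh-poor libraries, with 19 of 22 above (log2 fold change 2.22, SE 0.21, adjusted p = 3.72e-11). Slc17a7, the transporter of cortical neurons, went the other way, at 20.2 to 408 CPM (median 192) in Trh-rich and 9.13 to 1665 CPM (median 608) in Trh-poor libraries (-1.81, adjusted p = 6.12e-05). Ddc (0.96) and Slc18a2 (0.68), of monoamine synthesis and storage, were higher. The GABA synthesis gene Gad1 did not pass (0.04, adjusted p = 0.642).

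Markers of neighbouring regions moved with the hypothalamic genes, so the Trh-rich libraries were not rich in hypothalamic transcripts alone. Of 15 thalamic markers 14 were higher and 1 lower, with a median log2 fold change of 1.55, above that of each hypothalamic list, against 32.7% and 24.8% of all genes. Their summed level (lowest, median and highest) was 1064, 1940.0 and 3415 CPM in Trh-rich and 909, 1103 and 1355 CPM in Trh-poor libraries. Prkcd, a protein kinase C of sensory thalamus, lay at 22.6 to 724 CPM (median 154) in Trh-rich and 7.95 to 85.1 CPM (median 23.3) in Trh-poor libraries (2.69, adjusted p = 5.11e-08). Tcf7l2, a thalamic transcription factor, lay at 18.3 to 139.5 CPM (median 65.2) in Trh-rich and 5.12 to 27.6 CPM (median 12.7) in Trh-poor libraries (2.36, adjusted p = 2.23e-11, 19 of 22 above every Trh-poor library). The exception was Lhx2 (-0.65, adjusted p = 1.85e-08). In 20 markers of septum, bed nucleus and basal forebrain 11 were higher and 2 lower (median log2 fold change 0.43), against 32.7% and 24.8% of all genes. Among the higher were Gbx2 (1.97, adjusted p = 1.94e-09) and Nr2f2 (1.82, adjusted p = 2.41e-10, 20 of 22 above). The part of thalamic or septal transcripts in the result was not tested, and the libraries are called Trh-rich here rather than hypothalamic.

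**Figure D4:**
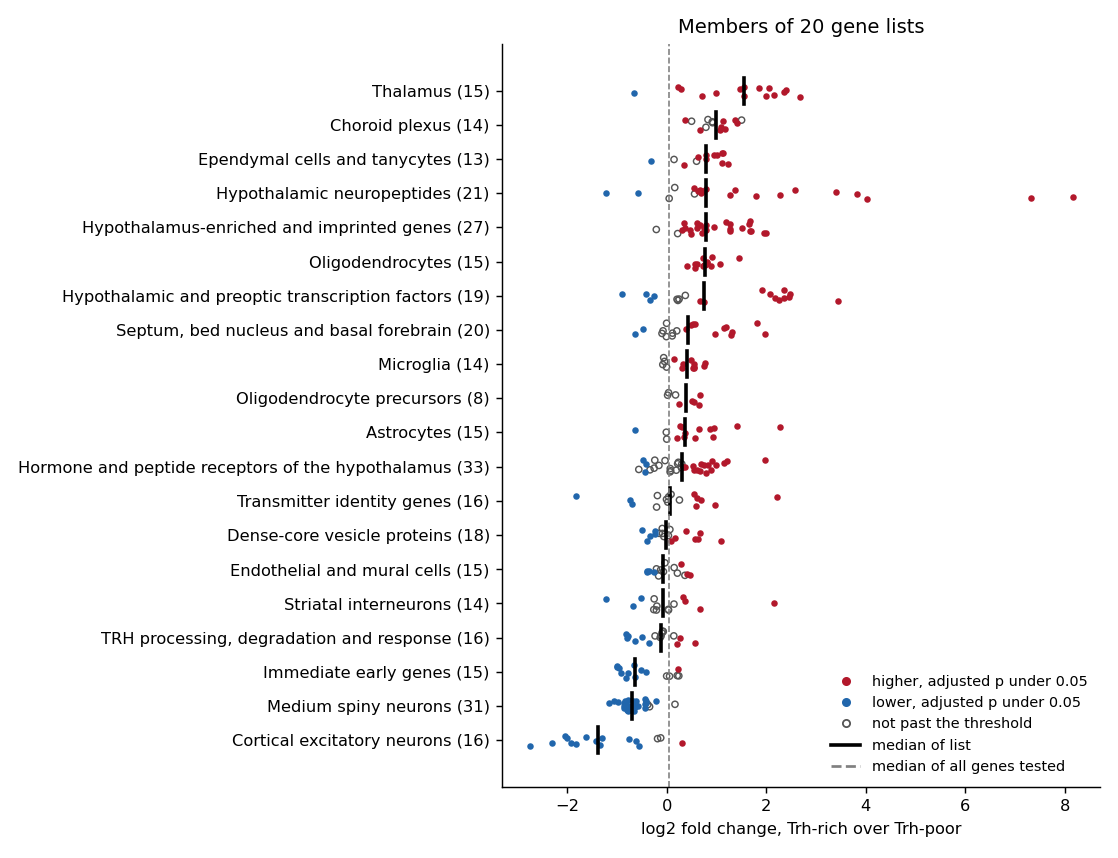
Log2 fold change, Trh-rich over Trh-poor, of the tested members (number in brackets) of 20 gene lists. Red points were higher and blue points lower at an adjusted p under 0.05, open points did not pass, black bars are list medians and the dashed line is the median of all genes tested, 0.04. Thalamic markers had the highest list median, 1.55, and cortical excitatory markers the lowest, -1.39.

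Genes of the tissue that the labels name were present in every library but lower in the Trh-rich ones. Of 31 markers of medium spiny neurons, the projection neurons of the striatum, 28 were lower and 0 higher (median log2 fold change -0.69), against 24.8% and 32.7% of all genes. Their summed level was 6149, 10100.0 and 19190.0 CPM in Trh-rich and 5049, 16510.0 and 24510.0 CPM in Trh-poor libraries, so the groups overlapped. In HDID1 alone 30 were lower (median -0.92), against 17.1% of all genes, and in HSNpt alone 9 (median -0.44), against 13.4%, but none of them passed the test of the line by Trh group interaction. Foxp1, a striatal transcription factor, lay at 58.4, 126 and 245 CPM in Trh-rich and 129, 256 and 385 CPM in Trh-poor libraries (log2 fold change -1.06, SE 0.11, adjusted p = 3.37e-10, 11 of 22 below every Trh-poor one). Bcl11b (-0.97, adjusted p = 1.78e-08), the cannabinoid receptor Cnr1 (-0.86, adjusted p = 1.80e-07, 14 of 22 below) and the phosphodiesterase Pde10a (-1.16, adjusted p = 2.42e-06) were lower, as were the dopamine receptors Drd1a (-0.86) and Drd2 (-0.74). The 3 that did not pass were Penk (-0.38, adjusted p = 0.0672), Ido1 (-0.34, adjusted p = 0.172) and Six3os1 (0.17, adjusted p = 0.232).

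Cortical excitatory markers had the lowest median of the lists. Of 16 tested 13 were lower and 1 higher (median log2 fold change -1.39), against 24.8% and 32.7% of all genes, and their summed level was 276, 427 and 698 CPM in Trh-rich and 330.5, 874 and 2014 CPM in Trh-poor libraries. Mef2c, a transcription factor of excitatory neurons, lay at 59.6 to 178 CPM (median 109.6) in Trh-rich and 134 to 518 CPM (median 243) in Trh-poor libraries (-1.31, adjusted p = 5.99e-11), with 16 of 22 below every Trh-poor library. Rorb was higher (0.30, adjusted p = 0.0216). Among immediate early genes, which respond to neuronal activity, 10 of 15 were lower and 1, Jun (0.22), higher, against 24.8% and 32.7% of all genes. In HSNpt alone 4 were lower (median -0.22), against 13.4% of all genes, and in females alone 6, against 21.8%. Over both lines and sexes Fosl2 (-0.82, adjusted p = 1.80e-07), Nr4a3 (-0.92, adjusted p = 2.03e-07) and Fosb (-0.64, adjusted p = 1.85e-08) were among the lower, while Fos did not pass (0.21, adjusted p = 0.147). Striatal interneuron markers had 4 higher and 3 lower of 14, median log2 fold change -0.08, near the 32.7% and 24.8% of all genes, with Pvalb, of parvalbumin neurons, higher (2.15, adjusted p = 6.71e-08) and Kit (-0.67) and Pthlh (-0.52) lower.

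Of the glial, vascular and ventricular lists, that of oligodendrocytes was higher throughout, where 32.7% of all genes were higher and 24.8% lower. All 15 oligodendrocyte genes were higher (median log2 fold change 0.77), such as Cldn11 (0.82, adjusted p = 5.77e-08) and Cnp (0.77, adjusted p = 1.81e-07), with a summed level of 6721, 9977 and 16020.0 CPM in Trh-rich and 3692, 6375 and 9629 CPM in Trh-poor libraries. Of 8 genes of oligodendrocyte precursors 5 were higher, against the same 32.7% of all genes, but Pdgfra did not pass (0.02, adjusted p = 0.878). Of 15 astrocyte genes 12 were higher, against 32.7% of all genes, and Slc1a2 was lower (-0.63, adjusted p = 3.26e-07). Their summed level was alike in both groups, at 2847, 4248 and 4921 CPM in Trh-rich and 3198, 4211 and 4703 CPM in Trh-poor libraries. Agt, angiotensinogen, made by astrocytes of the diencephalon, lay at 50.2, 105 and 298 CPM in Trh-rich and 3.27, 23.5 and 44 CPM in Trh-poor libraries (log2 fold change 2.28, SE 0.22, adjusted p = 4.20e-11), and the groups did not overlap. Gjb6, a gap junction protein of grey matter astrocytes, was higher with 21 of 22 above every Trh-poor library (0.87, adjusted p = 2.97e-11). Endothelial and mural markers had 3 higher and 4 lower of 15, median log2 fold change -0.06, below the 32.7% of all genes that were higher and near the 24.8% that were lower, and without the outlying libraries 0 of 15 passed by edgeR's quasi-likelihood test, with 2 at an unadjusted p under 0.05. Microglial markers had 10 of 14 higher and 0 lower (median 0.41), against 32.7% and 24.8% of all genes. Without the outlying libraries 5 were higher (median 0.17), where 23.7% of all genes were, with C1qa at 0.75 and 0.30. Ependymal and tanycyte markers had 10 higher and 1 lower of 13, median log2 fold change 0.80, against 32.7% and 24.8% of all genes. Without those libraries 4 were higher (median 0.58), near the 23.7% of all genes.

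Choroid plexus markers varied widely between libraries. Over both lines, 8 of 14 were higher and 0 lower, against 32.7% and 24.8% of all genes. In HDID1 alone 0 were higher (median log2 fold change 0.20), against 21.4% of all genes, and in HSNpt alone 8 (median 1.71), against 17.4%. The summed level was 322, 2706 and 5830.0 CPM in Trh-rich and 199, 546 and 5359 CPM in Trh-poor libraries. In HDID1, 0 passed by edgeR's quasi-likelihood test at an unadjusted p under 0.05 as well. Without the outlying libraries 2 were higher over both lines, below the 23.7% of all genes. No choroid plexus gene passed the test of the line by Trh group interaction, so the lines were not shown to differ.

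The largest rises and falls that held in each line alone brought in genes outside these lists. Parpbp, a DNA repair gene, had a log2 fold change of 5.97, but 1 of its 11 exons, chr10:88091432-88093186, overlaps Pmch on the opposite strand. That exon held 99.4% of the Parpbp counts of the Trh-rich libraries and 58.4% of those of the Trh-poor. In the other 10 exons the pooled level was 0.342 CPM in Trh-rich and 0.392 CPM in Trh-poor libraries. Shox2, a homeobox gene, lay at 2.26 to 89.8 CPM (median 30.8) in Trh-rich and 0 to 14.1 CPM (median 0.133) in Trh-poor libraries (3.78, adjusted p = 2.97e-07, 18 of 22 above), Rab37, a small GTPase of secretion, at 3.44 to 84.1 CPM (median 20.2) in Trh-rich and 0.709 to 9.46 CPM (median 1.98) in Trh-poor libraries (3.09, adjusted p = 6.28e-10), and Ramp3, a receptor activity modifying protein, at 10.7 to 159 CPM (median 34.9) in Trh-rich and 2.44 to 19.1 CPM (median 7.08) in Trh-poor libraries (2.55, adjusted p = 7.80e-10). The overlapping noncoding genes Gm26917 (2.54) and RP23-81C12.2 (2.45) were also among the rises, and their reads cannot be told apart. Among the largest falls were those of Gm11549 (-2.90, adjusted p = 3.01e-07), of Neurod6 (-2.30), Neurod2 (-2.05), Tbr1 (-1.92) and Slc17a7 of cortical excitatory neurons, the nuclear receptor Nr4a2 (-2.04), the Nogo receptor relative Rtn4rl2 (-2.01), 3110035E14Rik (-1.84), Dkkl1 (-1.80), Scube1 (-1.78) and Ipcef1 (-1.78). The opposite-strand partner of Ipcef1 is the opioid receptor gene Oprm1.

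Of the genes whose pattern was most like that of Trh, Gal was the only peptide precursor. Likeness was Spearman's rho over all 69 libraries, on log2 CPM with each line's median removed, among 15284 genes, and is a description over libraries that share line, depth and tissue. Cd83, an immune surface protein also expressed in neurons, had a rho of 0.907, and Sparc, a secreted matrix protein, 0.905. Sparc and the other genes of this paragraph were picked for likeness to Trh over libraries that include both groups. Their differences between the groups were therefore largely set by the choice and are no separate check. With this limit, Sparc (chr11:55394500-55420080) lay at 512, 813 and 1304 CPM in Trh-rich and 144, 323 and 506 CPM in Trh-poor libraries. Its log2 fold change was 1.41 (SE 0.11, adjusted p = 1.76e-12 by edgeR's quasi-likelihood test), and the groups did not overlap. Nrip2 followed with 0.890, then Snx8 (0.889), Resp18 (0.888), Podxl2 (0.887), Nap1l5 (0.887), Pcbd1 (0.884), Gal (0.878) and Hexim2 (0.878). Their log2 fold changes ran from 0.74 in Hexim2 to 2.57 in Gal, all below the 4.03 of Oxt, whose rho was 0.767. At the other end, Gas7 (-0.881), Zfp365 (-0.881) and Diras2 (-0.880) had the lowest rho.

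Trh, Gal and Oxt went together over the 69 libraries. These include the 44 chosen by Trh, so the values over all 69 restate the group differences in part. After the line medians were removed, Trh and Gal had a Pearson r of 0.817 and a Spearman rho of 0.878, and Trh and Oxt 0.785 and 0.767 (permutation test, two-sided, every raw p and every p adjusted over 6 pairs 1e-05, the smallest that 100000 permutations can give). Without the 2 libraries farthest in Trh the values of r were 0.812 and 0.781, and without outlying 5' balance 0.811 and 0.773. In the 25 libraries between the groups, where Trh spans a narrower range, r was 0.440 for Trh and Gal (rho 0.472, permutation p = 0.00389 and 0.0125, adjusted 0.00778 and 0.0193). There it was 0.305 for Trh and Oxt (rho 0.252, permutation p = 0.0843 and 0.191, also after adjustment), a relation that did not pass. Trh and Avp did pass there, with r 0.385 and rho 0.489 (permutation p = 0.0240 and 0.0129, adjusted 0.0360 and 0.0193). Without the 2 libraries farthest in Trh that r was 0.322.

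In those 25 libraries, which are in neither group, fewer genes passed. By edgeR's quasi-likelihood test 95 genes (0.590%) had a rising and 64 (0.398%) a falling slope on log2 CPM of Trh among 16091 tested. Without HDID1 male replicate 10, of outlying 5' balance, 258 rose and 112 fell. Of 5331 genes called higher in the 44 libraries, 87.4% had a slope above 0 in the 25, and of 4088 called lower 94.3% had a slope below 0, where 50.7% of all genes had a slope above 0. Of the 159 called slopes 93 were of genes called higher and rose, 64 were of genes called lower and fell, 0 went against the groups, and the other 2 were of genes not called there. Among genes called by both were Tcf7l2 (slope 2.05 per unit of log2 Trh, adjusted p = 0.0226), Slc17a6 (1.58, 0.0319), Rab37 (2.72, 0.0346), Cited1 (0.97, 0.0226), Cd83 (0.83, 0.0226) and, falling, Thrb (-0.54, 0.0495). Cd83 was named for its likeness to Trh over libraries that include these 25, so its slope is no separate check. The slope was 1.03 for Gal (adjusted p = 0.302) and 0.81 for Oxt (adjusted p = 0.758). By list, 7 of 15 thalamic markers had a called rise there, and 0 of 15 hypothalamic neuropeptides tested passed, with 5 at an unadjusted p under 0.05. The median slope was 1.63 in the thalamic list, 0.69 in the neuropeptides and -0.54 in medium spiny neuron markers. Slopes lay above 0 in 15 of 15 oligodendrocyte, 14 of 14 choroid plexus, 8 of 8 oligodendrocyte precursor and 24 of 27 hypothalamus-enriched genes. They did so in 13 of 15 astrocyte, 13 of 17 transcription factor, 11 of 13 ependymal and 11 of 15 endothelial genes, in 1 of 31 genes of medium spiny neurons and in 3 of 16 of cortical neurons. About as many lay above as below 0 in septum, bed nucleus and basal forebrain (9 of 19), the receptors (16 of 31), dense-core vesicle proteins (8 of 18) and microglia (7 of 14). Of 116 named genes tested there, 23 kept their direction and side of the threshold, 91 kept the direction but did not pass and 2 turned.

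Both lines showed the pattern. In HDID1 alone 3460 genes (21.4%) were higher and 2768 (17.1%) lower, in HSNpt alone 2810 (17.4%) and 2169 (13.4%). Called in both with the same sign were 2220 higher and 1736 lower genes, 64.1% of the HDID1 and 79.7% of the HSNpt calls tested in both, and 0 were called with opposite signs. Oxt had log2 fold changes of 3.59 and 4.54 in HDID1 and HSNpt, Gal of 2.34 and 2.83, Pmch of 7.46 and 7.02, Otp of 3.24 and 3.71, and Foxp1 of -1.34 and -0.78. For the line by Trh group interaction 0 genes passed (0%) by edgeR's quasi-likelihood test, with 598 at an unadjusted p under 0.05, and 1 passed without the outlying libraries. For the interaction with sex 0 passed (0%), with 1254 at an unadjusted p under 0.05. Of these, 1030 were below 0 and 224 above 0, as male minus female. DESeq2 was not run for either interaction.

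**Figure D5:**
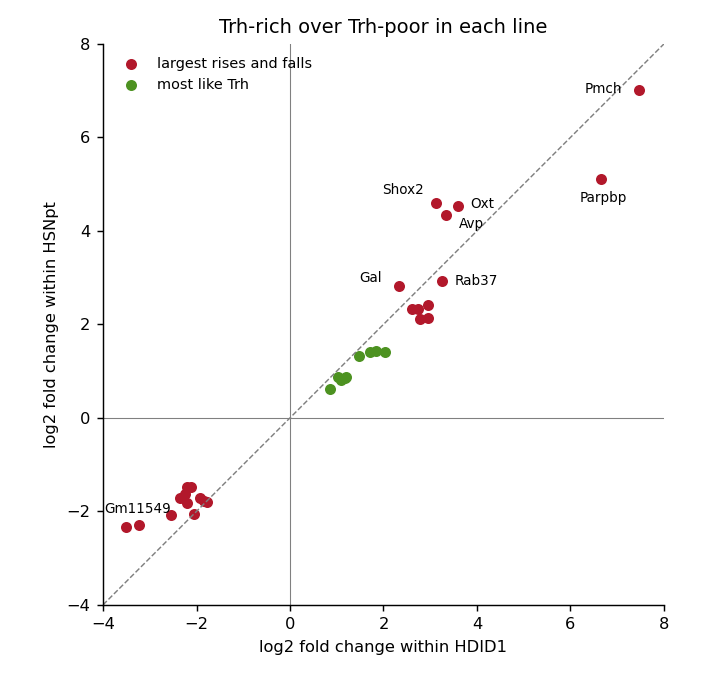
Log2 fold change, Trh-rich over Trh-poor, within HDID1 (horizontal) and within HSNpt (vertical) for the 33 genes named as largest rises or falls (red) or as most like Trh (green). The dashed line marks equal values. All lie in the upper right or lower left quadrant. For the red genes this was set by the choice, which required the same sign in each line. The green genes were chosen for likeness to Trh over both lines together, with each line's median removed, so their place was largely set as well. Pmch is farthest out at 7.46 and 7.02.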

How the data were processed

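Whole-number read counts per gene and exon, 1 column per mouse, were deposited by the authors unnormalized. The submitters' processing notes name STAR, bedtools, edgeR, FastQC and CASAVA and build mm10, their versions being not given in the sources used here. Per the labels' protocols libraries were poly-A selected and stranded.

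Here CPM was the count over the column sum, and libraries were ranked by CPM of Trh within each line. Groups, gene lists and tests were chosen with earlier results of these data known. Genes passing filterByExpr were fitted with edgeR 4.0.16 (R 4.3.3; TMM scaling, line as covariate, quasi-likelihood test) without Trh, and p-values were Benjamini-Hochberg adjusted over all 16810 genes at a threshold of 0.05. SE is the standard error of the log2 fold change. A count of 0 allows 3 counts, 0.213 CPM at the lowest depth, counting error only. The lowest chi-square per gene between libraries of a group was 6.07, so none was taken as deposited 2 times. On simulated data 77 of 100 genes changed by 0.5 and 96 of 100 changed by 1 on the log2 scale were called in the Trh-rich against Trh-poor comparison on 16810 genes, with 5 false calls. No other genes were changed there and each gene was drawn on its own, while 57.6% of genes were called in the data. The simulation therefore does not give the error rate of the comparison itself.

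Named were Trh, Gal and Oxt, the 12 largest rises and falls with at least 5 CPM that held in each line, up to 4 members of smallest p with at least 1 CPM per list, the 10 genes most like Trh and the 5 of smallest p for each interaction. Some results that the rule names are not reported here. Other genes named were chosen after their values were seen. Log2 CPM for correlations used a prior count of 2, and library measures and correlations 100000 permutations within line. The exon table gave the mm10 coordinates. Exons of 6203 genes overlap a gene on the opposite strand. Alternatives were another scaling (RLE), DESeq2 1.42.0, no filter, sex or 5' balance as terms, no line term, other group sizes, ranking by Gal or Oxt, Trh as a continuous term, each line or sex alone, and leaving out libraries of outlying 5' balance.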

Additional observations from a re-analysis of the deposited data

How the results depend on the processing

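The counts of 5505 higher and 4174 lower genes stayed within 1.5 times except under the 4 alternatives with fewer libraries given next, and ran from 3755 and 3114 when libraries were ranked by Oxt to 5816 higher genes without a filter and 4642 lower ones with Trh as a continuous term over 69 libraries. Ranking by Gal gave 4718 and 3684, and 18 of 22 Trh-rich and 16 of 22 Trh-poor libraries were the same. Outside 1.5 times were 3460 and 2768 in HDID1 alone, 2810 and 2169 in HSNpt alone, 2376 and 2277 in males alone, and 95 and 64 in the 25 libraries between the groups. With 5' balance as a term 4014 were higher and 3839 lower, and with this term and without the outlying libraries, an alternative chosen after seeing the data, 3851 and 3651. For the slopes in the 25 libraries 258 were higher and 112 lower without the outlying library, HDID1 male replicate 10, and 41 were lower without a filter. The cause of these shifts was not tested. For the line interaction 1 gene, BC023719, passed without the outlying libraries (adjusted p = 0.0312), with medians of 0.110 CPM or less in each line and group and highest values of 8.55, 7.90, 12.6 and 0.182 CPM.

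Total counts, Trh-rich minus Trh-poor, differed by 2442736 with 8 libraries per group and line (adjusted p = 0.0839), by 1214763 with 17 (adjusted p = 0.208) and by 416955 in HDID1 alone (adjusted p = 0.576). Genes detected differed by 451 (adjusted p = 0.0839), 350 (adjusted p = 0.0808) and 413 (adjusted p = 0.347) in that order. Both differences were larger elsewhere, total counts at 3991891 in HSNpt alone (adjusted p = 0.0138) and genes detected at 915 without the outlying libraries (adjusted p = 1.20e-04). The difference in 5' balance was -0.535 in HDID1 alone (adjusted p = 0.121) and -0.0656 without the outlying libraries (adjusted p = 0.167). Of 118 named genes 116 were called, and 11 lost the call without those libraries. In the 25 libraries 91 lost it. Among called genes direction turned for 4931415C17Rik in HSNpt alone (log2 fold change 0.036), for Gp5 in the 25 libraries (-0.17) and in males alone (-0.10), and for Pdgfrb in the 25 libraries (0.061). Gm10509, which was not called (-0.063), ran from -0.64 in HDID1 alone, where it passed (adjusted p = 0.0126), to 0.53 in HSNpt alone (adjusted p = 0.0819), and was above 0 under 7 alternatives, among them without those libraries (0.10). No paired analysis was possible because replicate numbers follow sample order only and pair no mice. Genes near 0.213 CPM are limited by depth.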

Other observations

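The genes of smallest p for the line by Trh group interaction, none of which passed, were Pnpla1 (-1.50, adjusted p = 0.686), Gm10509 (-1.16, adjusted p = 1), Il20ra (-1.19, adjusted p = 1), 4931415C17Rik (-0.71, adjusted p = 1), RP23-243H19.2 (-1.58, adjusted p = 1). For the interaction with sex they were Gm3468 (-1.18, adjusted p = 0.605), Fkbp5 (0.37, adjusted p = 0.605), Rps15a-ps5 (-3.19, adjusted p = 0.605), Gp5 (-0.96, adjusted p = 0.605), Xist (-5.86, adjusted p = 0.605). Each value is a difference between log2 fold changes, HDID1 minus HSNpt or male minus female, with its adjusted p by edgeR's quasi-likelihood test.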
